A study of Chlorocebus sabaeus with 18 samples.

Results

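The alternative last exon events are the splicing events whose deposited type is "Alternative Last Exon" in the 5 event tables of this study, each of which lists the same 6311 events. There are 800 of them, in 696 genes, with 84 genes holding more than 1 event and no gene more than 3. Their type alone chose them, and no measured value entered the choice.

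Many genes can end their transcripts in more than one last exon. Each such exon carries its own splice acceptor and its own cleavage and polyadenylation signals, so the choice sets the end of the protein and the untranslated region that follows it. The choice depends on a contest between splicing to a distal exon and cutting the transcript at a proximal end, and splicing factors can tip it. TRA2A is a serine/arginine-rich protein that binds purine-rich exon sequence and helps splicing machinery recognise such exons. Transcripts of FMR1 with an expanded CGG repeat in the 5′ leader are known for gathering RNA-binding proteins, and the study asks about the recruitment of TRA2A to them.

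All samples came from COS-7, a fibroblast-like line of African green monkey kidney cells, and each group has 3 samples. GFP_TRA cells overexpressed TRA2A. siTRA cells had TRA2A knocked down. CGG_siTRA cells carried a transfected FMR1 leader with 60 CGG repeats together with the knockdown, CGG_TRA cells carried the same repeat together with TRA2A overexpression, and CGG cells carried the repeat alone. CTL cells were control COS-7. No group received an empty vector or a control siRNA by its label. An effect of transfection and an effect of the transfected agent therefore cannot be told apart in any comparison with CTL. The same limit holds for CGG_siTRA vs CGG, CGG_siTRA vs siTRA and GFP_TRA vs siTRA, whose groups also differ in what was transfected. The labels do not say that samples of a group were separate cultures, so p-values measure the spread between these samples, which may be technical.

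Counts of reads per exon bin (the smallest stretch of annotated exon that the counting keeps apart) were available for 15 libraries, the 3 CGG_TRA samples having none. Library totals over all located bins ran from 121142115 to 203957869. The libraries are lettered a to c within a group since nothing links the count columns to the numbered samples in the titles. Of 14977 genes tested, 1 rose 2-fold or more in GFP_TRA vs CTL and fell 2-fold or more in siTRA vs CTL and in CGG_siTRA vs CGG (edgeR quasi-likelihood test, Benjamini-Hochberg adjusted p under 0.05 in each). This gene, ENSG00000164548.10, averaged 204614 ± 17346 normalised counts in GFP_TRA, 3914 ± 917 in siTRA, 4274 ± 221 in CGG_siTRA, 16252 ± 701 in CGG and 17097 ± 166 in CTL (SD, n = 3 each). It was picked by these values, and no file or reference pairs the identifiers with gene names, which makes it a limited check on the labels. For the same reason events are given below by the authors' event number and their position on GRCh38, and no function is assigned to their genes. Marker lists for other cell types could not be matched either.

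The type name went against the gene models for most of these events. A gene with a known strand was given for 789 events, of which 253 lay in genes on the plus strand and 536 in genes on the minus strand. On the plus strand the event's outer limit, its high coordinate, lay in the 3′ part of the gene in 228 of 253 events, with a median place 96.6% of the way along the gene, and 173 lay in the last 10% of its length. On the minus strand the same limit lay in the 5′ part in 466 of 536 events, with a median place 1.1% of the way along, and 380 lay in the first 10% of its length. The low coordinate, which the alternatives share, coincided with the end of an exon bin in 243 of 253 plus-strand and 523 of 536 minus-strand events. The events typed "Alternative First Exon" mirrored this: their low coordinate had a median place 1.31% of the way along 587 plus-strand genes and 95.4% along 245 minus-strand genes. The type therefore followed genome coordinates rather than the direction of transcription, and it is mainly the plus-strand events that sit where last exons are. Each named event is given with its strand. The counts over all events of this type pool both strands unless split, and most of the minus-strand events in them are not last exons by the gene models. Exon-bin shares and host gene counts were not split by strand.

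**Figure D1:**
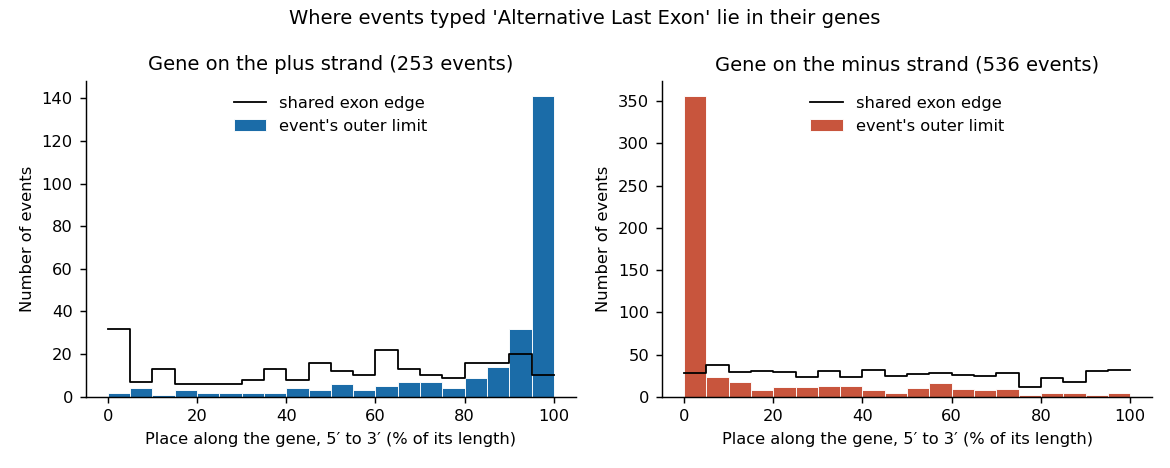
Number of events typed "Alternative Last Exon" (vertical axis) by place along the gene from its 5′ to its 3′ end in percent of gene length (horizontal axis, classes of 5%), for 253 plus-strand events (left) and 536 minus-strand events (right). Filled bars show the event's outer limit and the black line the shared exon edge, with places beyond the gene's annotated limits put in the end classes. The outer limit of 141 plus-strand events falls in the last class, whereas that of 356 minus-strand events falls in the class at the 5′ end.

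To follow the choice in each library, the bins inside an event were split into an outer block and inner bins. The outer block is the run of adjoining bins nearest to the event's high coordinate, and inner bins are all others beyond the shared exon edge. A bin of the gene held that coordinate in 215 of 253 plus-strand and 485 of 536 minus-strand events. In the rest any outer block stops short of it and may miss the outer alternative. The outer share is the percentage of the event's reads that fall in the outer block. The test compares the ratio of outer to inner reads between groups, so a change in the expression of the whole gene leaves it unaltered. It does not say which side moved, and inner bins can include internal exons as well as the other terminal exon. Counting of this kind usually enters a read that spans several bins in each of them, so intervals from the counts cover counting error only and are somewhat too narrow. In a bulk library, a change in every cell and a change in some of the cells cannot be told apart.

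Of the 800 events, 10 had no gene given, 1 had its limits in reverse order, 7 had no bin inside, 86 had no inner bin, and 696 could be split. Of these, 56 did not reach 10 normalised reads in at least 3 libraries on both sides, which left 640 tested events, 214 on the plus strand and 426 on the minus strand. They hold 629 distinct outer blocks, so a few events share one, and 119 lie in groups of overlapping genes, where reads cannot be assigned to 1 gene. The plus-strand events spanned a median of 13102 bases with 9 bins, and the minus-strand events 8625 bases with 7 bins. The median outer share on the plus strand was 29.7% in GFP_TRA, 30.8% in siTRA, 29.3% in CGG_siTRA, 29.3% in CGG and 30.8% in CTL. On the minus strand it was 52.4% in GFP_TRA, 51.6% in siTRA, 51.9% in CGG_siTRA, 52.4% in CGG and 53.5% in CTL. On both strands the group medians lay close together. The typical SD between libraries of a group was smallest in CGG on the plus strand, at 0.560 points, and largest in siTRA on the minus strand, at 1.27 points.

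The test is an edgeR quasi-likelihood fit with a term for each library. It replaced the test first planned, edgeR's diffSpliceDGE, after that test had been run on these data and had called few events, so the counts below were chosen with a smaller set of counts in view. A reason for the change was that the planned test gave different p-values to the outer and the inner side of 1 event. A further reason was a simulation for CGG vs CTL over 4237 events. There the planned test recovered 37% of 2-fold and 6% of 1.5-fold changes, with 0 false calls among 43. The fit used here recovered 93% and 68%, with 7 false calls among 168. The simulated spread came from the fit used here. A level per library and event, shared by both sides, was added, which the library term of that fit takes up. The simulation therefore favoured that fit and is no independent support for the change. The count from the planned test is given beside each count.

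The repeat was compared with CTL first. In CGG vs CTL the outer-to-inner ratio passed the test in 14 of 640 events (2.19%), with 9 higher and 5 lower in CGG, beside 2.07% (1.53% higher, 0.54% lower) of all 4258 events of every type tested in the same fit (edgeR quasi-likelihood test, Benjamini-Hochberg adjusted p under 0.05 over all 4258). The share was close to that background. The median change over the 640 events was 0.02 on the log2 scale and the median size of a change was 0.11, beside 0.07 over all events. Of the 14, 7 were on the plus strand and 7 on the minus strand. The planned diffSpliceDGE test called 1. The count was 47 when the CGG and CTL libraries were fitted without the other groups. It was 7, 6 and 5 without CTL library a, b and c, and 7, 8 and 4 without CGG library a, b and c.

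The largest rise among well-covered events was in event 11100_2, on the minus strand (chr17:44218296-44220871), whose outer block is at the 5′ end of its gene. Its outer share was 37.8%, 39.3% and 40.7% in the 3 CGG libraries, against 21.2%, 17.7% and 19.3% in CTL. The groups did not overlap, which the rule for naming events requires, and the ratio was higher by 1.44 ± 0.11 on the log2 scale (SE, edgeR adjusted p = 2.66e-05). Counting error was at most 6.91 points either way (95% exact binomial interval). The outer block had 179 ± 30.3 normalised reads in CGG and 97.8 ± 11.2 in CTL, and the inner bins 275 ± 32.4 in CGG and 405 ± 12.7 in CTL (SD, n = 3 each), so the sides differed in opposite directions. The change was -0.61 when the block at the 3′ end by strand was set against the rest without the bins at the 5′ limit, a split that reads this minus-strand event from its other end, and the planned diffSpliceDGE test called this event. In the authors' deposited table for CGG vs CTL, 1 of its 2 outer bins and 1 of its 4 tested inner bins had an adjusted p under 0.05.

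Event 1471_1, on the plus strand at the 3′ end of its gene (chr2:44218537-44233459), also rose with the repeat. Its outer share was 61.6%, 63.4% and 61.9% in CGG, against 52.7%, 52.6% and 56.3% in CTL, a change of 0.50 ± 0.07 (SE, edgeR adjusted p = 0.00353). The outer block held 1013 ± 7.11 normalised reads in CGG and 1131 ± 106 in CTL, while the inner bins held 613 ± 21.5 in CGG and 967 ± 74.9 in CTL. The inner bins thus carried most of the difference. Event 5134_2 (chr7:102195603-102283163, plus) had a small outer share of 4.26%, 4.16% and 4.28% in CGG, against 2.76%, 3.07% and 3.33% in CTL, and rose by 0.49 ± 0.10 (edgeR adjusted p = 0.0319). Event 10587_3 (chr17:35844368-35846906, plus) had 37.3%, 38.1% and 39.6% in CGG, against 31.0%, 33.5% and 28% in CTL, and rose by 0.49 ± 0.10 (edgeR adjusted p = 0.0298). The other rise within the naming rule was event 7828_1 (chr11:112085462-112086736, minus), by 0.61 ± 0.14 (edgeR adjusted p = 0.0415). The calls of 7828_1 and 5134_2 were weak, being lost under 12 and 10 of 16 alternative settings. That of 10587_3 was lost under 7 of the 16.

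Event 3160_1 (chr4:30724596-30920369, plus) fell. It had an outer share of 20.2%, 19.7% and 19.4% in CGG, against 34.5%, 29.5% and 31.8% in CTL, a change of -0.92 ± 0.18 (SE, edgeR adjusted p = 0.0235). Here the outer block held fewer reads, at 59.7 ± 4.43 normalised reads in CGG and 122 ± 8.53 in CTL, and the inner bins differed less, at 242 ± 15 in CGG and 261 ± 13.7 in CTL. Event 6872_1 (chr10:125833946-125853341, plus) fell by 0.28 on the log2 scale (SE 0.05, edgeR adjusted p = 0.021), but was 0.03 when set against its highest inner bin alone. Its call was lost under a further 6 of 16 settings. Event 5464_1 (chr7:101164863-101165558, minus) had 68.2%, 71.6% and 60.4% in CGG, against 77.9%, 79.3% and 77.4% in CTL, a change of -0.87 ± 0.19 (edgeR adjusted p = 0.0364), a call lost under 8 of 16 settings. The lowest value of any called event, -2.70 for event 10177_3 on the minus strand (edgeR adjusted p = 0.021), rests on inner bins with a mean under 50 normalised reads, and it was singled out after its value was seen.

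**Figure D2:**
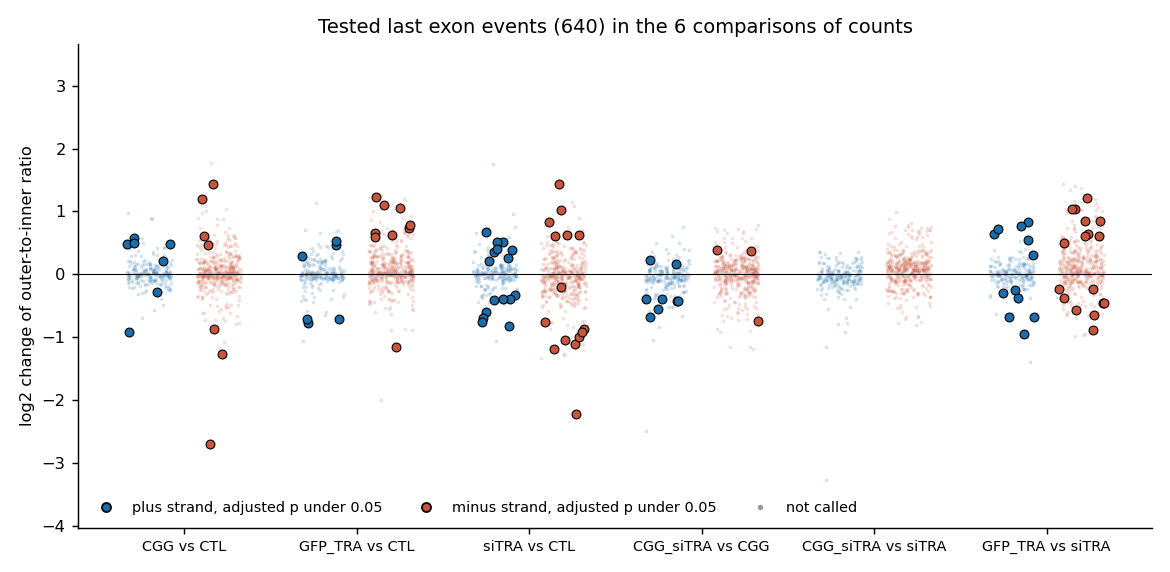
The log2 change of the outer-to-inner ratio (vertical axis) of the 640 tested events in 6 comparisons (horizontal axis), with plus-strand events left and minus-strand events right in each pair of columns. Large outlined points passed an adjusted p under 0.05 (edgeR), small points did not. Called events lie on both sides of 0 in the 5 comparisons that have any, and CGG_siTRA vs siTRA has none.

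TRA2A overexpression was compared with the same CTL libraries. In GFP_TRA vs CTL, 15 of 640 events (2.34%) passed, 11 higher and 4 lower in GFP_TRA, beside 1.76% (1.34% higher, 0.423% lower) of all 4258 events (edgeR, same test). Of the 15, 6 were on the plus strand and 9 on the minus strand, and 8 of those 9 were higher. By the planned diffSpliceDGE test 0 events passed. With the GFP_TRA and CTL libraries alone the count was 25. It was 9 without CTL library b, 7 without CTL library c and 7 without GFP_TRA library b, and between 11 and 14 without any of the others.

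Overexpression and the repeat share their CTL libraries, so values of the same event in both are not independent. Event 11100_2 had 36.3%, 37.8% and 33.4% in GFP_TRA, above all 3 CTL libraries given before as the naming rule requires, and rose by 1.23 ± 0.11 (edgeR adjusted p = 0.000138). Event 1471_1 had 61.4%, 62.5% and 64.8% and rose by 0.54 ± 0.07 (edgeR adjusted p = 0.00143). Event 3160_1 had 22.4%, 23.2% and 18.4% and fell, with a change of -0.77 ± 0.17 (edgeR adjusted p = 0.0418). All 3 lay on the same side of CTL as in CGG.

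Other events rose with overexpression and did not pass the test in CGG vs CTL. Event 11301_1 (chr17:81888583-81889329, minus) had an outer share of 98.2%, 98.5% and 98.2% in GFP_TRA, against 96.2%, 97.0% and 96.5% in CTL, a change of 1.05 ± 0.20 (SE, edgeR adjusted p = 0.0147). Event 10974_3 (chr17:17820521-17836928, minus) had 42.3%, 41.4% and 38.8% in GFP_TRA, against 31.3%, 29.3% and 28.1% in CTL, a change of 0.73 ± 0.13 (edgeR adjusted p = 0.0131). In both events no GFP_TRA library overlapped the CTL libraries, which the naming rule requires. Event 2999_1 (chr3:149527969-149658030, minus) had 16.6%, 16.8% and 13.3% in GFP_TRA, against 10.1%, 11.4% and 11.1% in CTL, a change of 0.59 ± 0.14 (edgeR adjusted p = 0.049), close to the threshold, and -0.50 under the split by strand, and its call was lost under a further 10 of 16 settings. Event 4274_1 (chr6:26158301-26273193, plus) fell, with 3.26%, 3.57% and 3.79% in GFP_TRA, against 6.07%, 4.86% and 6.09% in CTL, a change of -0.71 ± 0.12 (edgeR adjusted p = 0.0069). Its outer block ends at 26171349, far short of the event's high coordinate, so its share may not follow the outer alternative. In CGG vs CTL, 10974_3 was at 0.50 ± 0.13 and 2999_1 at 0.53 ± 0.14 (edgeR adjusted p = 0.0774 each). They were at 0.49 ± 0.13 and 0.50 ± 0.14 in siTRA vs CTL (edgeR adjusted p = 0.0587 and 0.081), the same direction as with overexpression. Events 11301_1 and 4274_1 were at 0.46 ± 0.19 and -0.11 ± 0.11 in CGG vs CTL (edgeR adjusted p = 0.332 and 0.869). Whether overexpression and the repeat differ in these events was not tested.

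The knockdown was then compared with the same CTL libraries. In siTRA vs CTL, 31 of 640 events (4.84%) passed, 14 higher and 17 lower in siTRA, beside 3.22% (1.22% higher, 2.0% lower) of all 4258 events (edgeR, same test). On the plus strand 16 of 214 (7.48%) passed, 8 in each direction, and on the minus strand 15 of 426 (3.52%), 6 higher and 9 lower. The strands were not tested against each other. By the planned diffSpliceDGE test 2 events passed. With the siTRA and CTL libraries alone the count was 13, below those of CGG vs CTL and GFP_TRA vs CTL fitted in the same way. It was 19 without CTL library b or c and between 22 and 35 without any of the other libraries.

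Event 6793_1 (chr10:96952196-96982396, plus, in gene ENSG00000196233.13) had the lowest adjusted p among the plus-strand events. Its outer share was 46.0%, 48.0% and 43.7% in siTRA, against 58.4%, 59.4% and 58.8% in CTL, a change of -0.75 ± 0.06 (SE, edgeR adjusted p = 2.79e-05). The outer block, a stretch of 5033 bases that reaches the event's 3′ limit, held 3643 ± 752 normalised reads in siTRA and 3323 ± 366 in CTL. The inner bins held 4252 ± 516 in siTRA and 2324 ± 301 in CTL. The reads at the distal end thus stayed within their spread, while those at the proximal side were higher in every siTRA library than in any CTL library. In the authors' deposited table for this pair, 2 of 2 outer bins and 5 of 6 inner bins had an adjusted p under 0.05.

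Event 435_4 (chr1:154261697-154268954, plus) lies in a group of overlapping genes and so falls outside the naming rule, and it was chosen after its values were seen. Its outer share was 14.4%, 12.3% and 13.1% in siTRA, against 19.6%, 21.4% and 18.6% in CTL, a change of -0.69 ± 0.09 (edgeR adjusted p = 0.00081). In contrast to 6793_1 the outer block itself held fewer reads, at 286 ± 9.56 normalised reads in siTRA and 595 ± 54.8 in CTL, with inner bins at 1874 ± 113 in siTRA and 2398 ± 17.4 in CTL. In the authors' deposited table both of its outer bins passed.

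Among the rises on the plus strand, event 243_3 (chr1:45606591-45613169, in gene ENSG00000132780.16) had an outer share of 36.5%, 36.2% and 36.7% in siTRA, against 31.8%, 30.3% and 30.6% in CTL, a change of 0.36 ± 0.05 (SE, edgeR adjusted p = 0.00128). Both sides were lower in siTRA, with the outer block at 1953 ± 262 normalised reads in siTRA and 2201 ± 57.6 in CTL and the inner bins at 3404 ± 484 in siTRA and 4919 ± 221 in CTL. The inner bins fell further, and 0 of 4 outer and 3 of 6 inner bins passed in the authors' deposited table. Event 9454_1 (chr15:74034530-74044899, plus) had 49.5%, 57.0% and 47.3% in siTRA, against 37.9%, 43.7% and 36.5% in CTL, a change of 0.67 ± 0.16 (edgeR adjusted p = 0.0333), a call lost under 8 of 16 settings.

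On the minus strand event 13739_2 (chrX:154546163-154547572) fell furthest of those within the naming rule. It had an outer share of 14.8%, 16% and 18.5% in siTRA, against 29.7%, 30.1% and 29.9% in CTL, a change of -1.11 ± 0.17 (SE, edgeR adjusted p = 0.00266). The same event was at -0.59 ± 0.16 in CGG vs CTL and -0.56 ± 0.16 in GFP_TRA vs CTL, without passing (edgeR adjusted p = 0.0774 and 0.107). Event 3984_1 (chr5:59215968-59768651) had 71.7%, 65.7% and 72.9% in siTRA, against 78.8%, 81.1% and 80.0% in CTL, a change of -0.76 ± 0.11 (edgeR adjusted p = 0.00227). Event 3458_2 (chr4:76144473-76148413) had 74.4%, 71.3% and 81.4% in siTRA, against 83.0%, 88.0% and 87.6% in CTL, and fell with a change of -1.0 ± 0.25 (edgeR adjusted p = 0.0447), a call lost under 11 of 16 settings. In these 3 events every siTRA library was below every CTL library, which the naming rule requires. Event 6001_5 (chr8:143586852-143597348) rose, with 57.5%, 59.3% and 60.2% in siTRA, against 49.5%, 46.3% and 48.8% in CTL, a change of 0.63 ± 0.08 (edgeR adjusted p = 0.00107). Event 4022_2 (chr5:82277852-82278344), nearly all of whose reads lie in the outer block, rose by 0.63 ± 0.07 (edgeR adjusted p = 0.0006), with 99.4%, 99.4% and 99.3% in siTRA and 98.9%, 99.0% and 99.1% in CTL.

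The knockdown was repeated in cells that carried the repeat, against CGG cells, with no library in common with the pair above. CGG cells received no control siRNA by their label, so here too an effect of transfection cannot be told apart. In CGG_siTRA vs CGG, 11 of 640 events (1.72%) passed, 4 higher and 7 lower in CGG_siTRA, beside 1.64% (0.446% higher, 1.2% lower) of all 4258 events (edgeR, same test). On the plus strand 8 of 214 passed and on the minus strand 3 of 426. The planned diffSpliceDGE test called 1, limma with a pseudocount of 0.5 called 7, and the count was 6 with the libraries of the compared groups alone. It was 2, 6 and 1 without CGG library a, b and c, 2 without CGG_siTRA library b, and 9 and 10 without CGG_siTRA library a and c.

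Of the events called in either knockdown comparison, 6 were called in both, which is 19.4% of the 31 in siTRA vs CTL and 54.5% of the 11 in CGG_siTRA vs CGG. All 6 had the same direction in both, all were on the plus strand, and they lie in 5 genes. On the minus strand 0 of the 15 and 3 called events were shared. Of the 31 events called in siTRA vs CTL, 19 had the same sign in CGG_siTRA vs CGG. The matching counts over the tested events of every type were not taken, so these figures cannot be read as particular to last exon events. Across the 640 events the changes of the pair correlated weakly, with a Pearson r of 0.03 and a Spearman rho of 0.13, given as a description over events that are not independent.

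The 6 shared events were chosen for being called in both comparisons, after their values were seen. Event 435_4 had an outer share of 13.9%, 13.8% and 14.9% in CGG_siTRA, against 20.1%, 22.4% and 20.4% in CGG, a change of -0.68 ± 0.09 (SE, edgeR adjusted p = 0.00443), close to the value without the repeat. It was called in both knockdown comparisons under all 16 alternative settings tried for each, diffSpliceDGE included. Event 6793_1 had 46.4%, 49.0% and 48.0% in CGG_siTRA, against 53.5%, 55.6% and 54.9% in CGG, a change of -0.40 ± 0.06 (edgeR adjusted p = 0.0148). Its inner bins again held more reads, at 3415 ± 355 normalised reads in CGG_siTRA and 2201 ± 162 in CGG. The repeat alone left its CGG share below CTL without passing the test in CGG vs CTL, at -0.25 ± 0.06 (edgeR adjusted p = 0.0752).

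Events 9416_9 (chr15:63062645-63071903, plus) and 9416_10 (chr15:63062645-63071090, plus) share their exon edge, a gene, ENSG00000140416.19, and their inner bins, so they are not separate evidence. The outer share of 9416_10 was 90.5%, 89.7% and 90.3% in siTRA, against 92.0%, 92.8% and 92.2% in CTL. It was 88.7%, 88.7% and 88.8% in CGG_siTRA, against 91.5%, 90.2% and 92.2% in CGG. The changes were -0.39 ± 0.07 in siTRA vs CTL (edgeR adjusted p = 0.0124) and -0.42 ± 0.07 in CGG_siTRA vs CGG (edgeR adjusted p = 0.0177). The knockdown libraries lay below their comparison group in both pairs, which the naming rule requires in CGG_siTRA vs CGG. The outer block held 16939 ± 943 normalised reads in siTRA and 24092 ± 1369 in CTL, while the inner bins held 1851 ± 200 in siTRA and 2003 ± 62.8 in CTL.

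Event 243_3 had 34.2%, 36.1% and 35.8% in CGG_siTRA, against 31.5%, 33.3% and 30.6% in CGG, and rose by 0.23 ± 0.05 (SE, edgeR adjusted p = 0.0357). Event 8055_1 (chr12:56155198-56159975, plus), lies in a group of overlapping genes. Its outer share was 97.4%, 97.5% and 97.5% in siTRA, against 96.7%, 96.7% and 96.7% in CTL, a change of 0.41 ± 0.04 (edgeR adjusted p = 0.000133). In CGG_siTRA vs CGG it rose by 0.17 ± 0.04 (edgeR adjusted p = 0.0474), a call that 12 of 16 alternative settings lost. Over the same settings in CGG_siTRA vs CGG the call was lost under 2 for 6793_1, 6 for 9416_10, 10 for 9416_9 and 7 for 243_3. The planned diffSpliceDGE test kept 435_4 alone of the 6 in both comparisons.

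**Figure D3:**
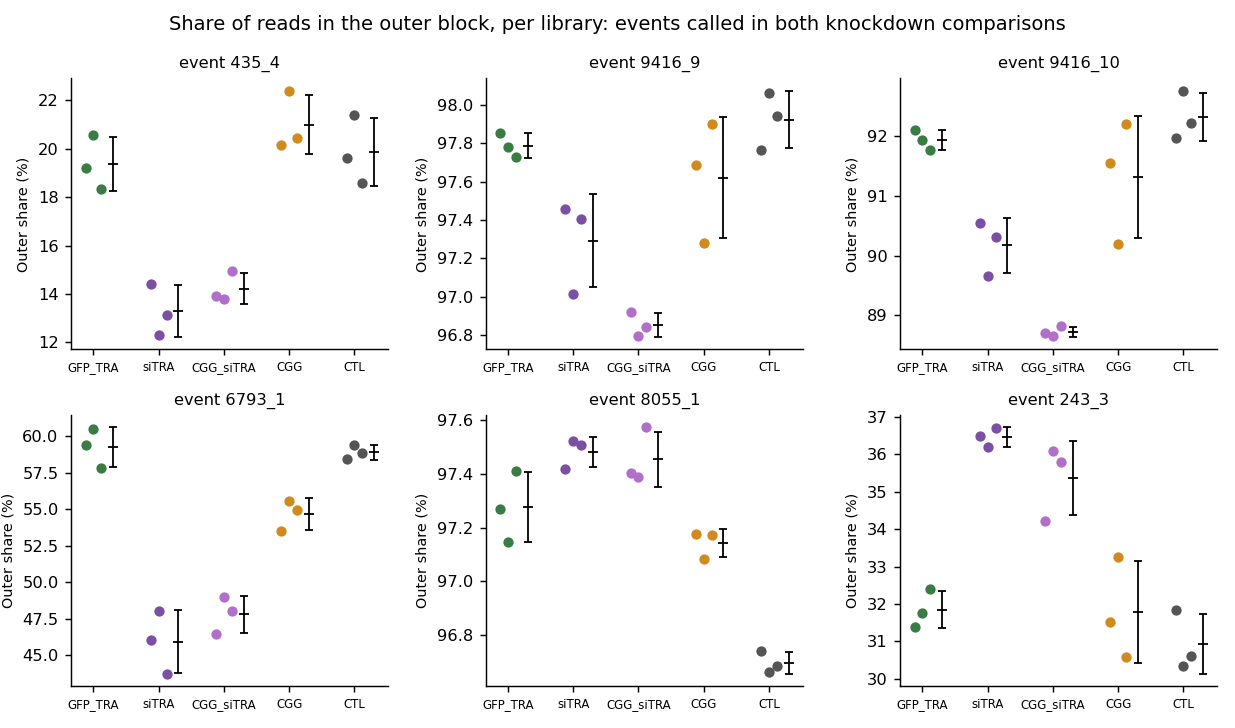
Outer share in percent (vertical axis, which does not start at 0) of the 6 events called in both knockdown comparisons, in each of 3 libraries of GFP_TRA, siTRA, CGG_siTRA, CGG and CTL (points), with mean and SD beside them. In events 435_4 and 6793_1 the siTRA and CGG_siTRA points lie below those of the other groups, and in event 243_3 they lie above.

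**Figure D4:**
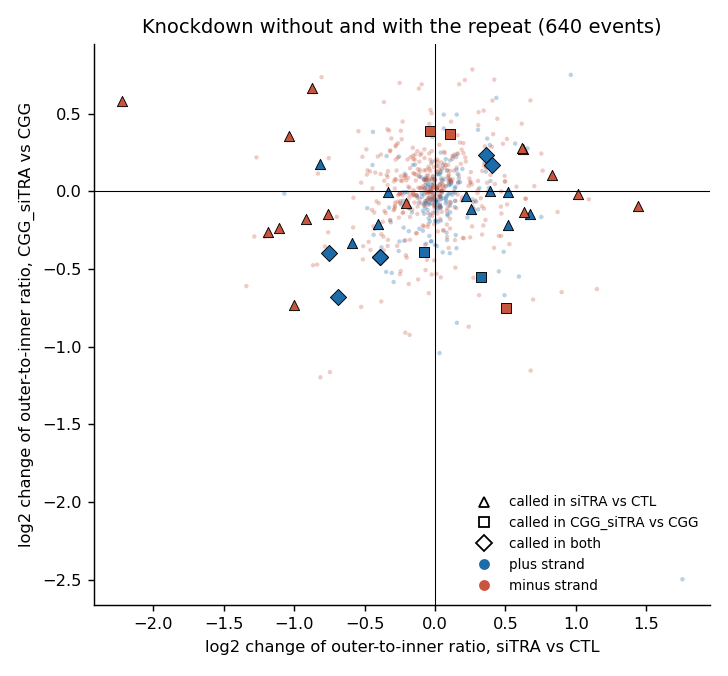
The log2 change of the outer-to-inner ratio in siTRA vs CTL (horizontal axis) against that in CGG_siTRA vs CGG (vertical axis) for 640 events, coloured by strand. Triangles, squares and diamonds mark events called in siTRA vs CTL, in CGG_siTRA vs CGG or in both (edgeR adjusted p under 0.05), and the diamonds are all on the plus strand and lie in the quadrants of equal sign.

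Several events passed in CGG_siTRA vs CGG and not in siTRA vs CTL. Event 10587_3 had 29.8%, 29.0% and 30.7% in CGG_siTRA, against 37.3%, 38.1% and 39.6% in CGG, a change of -0.55 ± 0.11 (SE, edgeR adjusted p = 0.0255). In siTRA vs CTL it had a change of 0.33 ± 0.10 in the other direction (edgeR adjusted p = 0.105). Event 196_3 (chr1:39327353-39349478, plus) fell, with 7.52%, 7.89% and 8.36% in CGG_siTRA, against 10.2%, 9.996% and 10.1% in CGG, a change of -0.39 ± 0.07 (edgeR adjusted p = 0.017). On the minus strand, event 13626_2 (chrX:70289354-70289860) rose by 0.39 ± 0.08 (edgeR adjusted p = 0.0384) and event 10936_2 (chr17:7857198-7885256) by 0.37 ± 0.08 (edgeR adjusted p = 0.0427), which was -0.30 under the split by strand. Of their calls, that of 13626_2 was lost under 8 of 15 settings and that of 10936_2 under a further 11 of 16.

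The difference between the knockdown effect with the repeat and the effect without it was tested directly, in a fit of all 5 groups. The difference takes in CTL, so an effect of transfection cannot be told apart from a dependence of the knockdown effect on the repeat. It passed in 8 of 640 events (1.25%), 2 higher and 6 lower, 3 on the plus and 5 on the minus strand, beside 0.587% (0.141% higher, 0.446% lower) of all 4258 events (edgeR, same test), and the planned diffSpliceDGE test called 0. Event 11100_2 had a difference of -1.54 ± 0.16 (SE, edgeR adjusted p = 0.000855), with outer shares of 38.3%, 35.3% and 39.8% in CGG_siTRA and 40.4%, 37.8% and 39.6% in siTRA. In this event the libraries of all groups other than CTL lay between 33.4% and 40.7%, and the difference was 0.75 under the split by strand. Events 11234_2 and 1471_1, outside the naming rule here, also have CTL libraries apart from all other groups, as given below. Both passed, at 1.40 ± 0.16 (edgeR adjusted p = 0.0024) and -0.52 ± 0.10 (edgeR adjusted p = 0.0324). Event 10587_3 had a difference of -0.88 ± 0.15 (edgeR adjusted p = 0.0224), event 6001_5 one of -0.76 ± 0.12 (edgeR adjusted p = 0.0144) and event 5464_1 one of 1.54 ± 0.29 (edgeR adjusted p = 0.0323). The calls of 5464_1 and 10587_3 were lost under 11 and 6 of 22 settings. The count was 4 when only the highest inner bin was used and ranged from 3, without CGG_siTRA library b, to 11, without siTRA library b. It was also 4 without CTL library a, any CGG library or siTRA library c, and 5 without CTL library b.

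The repeat was then set against its absence in knocked-down cells. In CGG_siTRA vs siTRA 0 of 640 events passed, beside 0.0% of all 4258 events (edgeR, same test), with 77 of the 640 at an unadjusted p under 0.05 and a smallest adjusted p of 0.171. DESeq2, limma and diffSpliceDGE also gave 0. Without CGG_siTRA library a 10 events passed, and without any other library 0. The titles of 2 CGG_siTRA samples name a round, not the same one, whose meaning is not given and which cannot be tied to a library, so a batch within this group cannot be told apart. The median size of a change was 0.13 on the log2 scale, beside 0.11 in CGG vs CTL.

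Both ends of the TRA2A range were compared directly. In GFP_TRA vs siTRA, 29 of 640 events (4.53%) passed, 15 higher and 14 lower in GFP_TRA, 12 on the plus and 17 on the minus strand, beside 2.49% (1.69% higher, 0.798% lower) of all 4258 events (edgeR, same test). Under diffSpliceDGE, as planned, 3 passed, among them 1706_1 and 1738_1, and the total was 6 with these 6 libraries alone. It was 14, 8 and 21 without GFP_TRA library a, b and c, and 19, 14 and 33 without siTRA library a, b and c.

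Of the 6 events shared by the knockdown comparisons, 4 passed here too: 435_4 with 0.65 ± 0.09 (edgeR adjusted p = 0.0028), 6793_1 with 0.78 ± 0.06 (edgeR adjusted p = 6.88e-05), 9416_10 with 0.31 ± 0.07 (edgeR adjusted p = 0.044) and 243_3 with -0.30 ± 0.05 (edgeR adjusted p = 0.00721). These share the siTRA libraries with siTRA vs CTL. In GFP_TRA the outer share of 6793_1 was 59.4%, 60.5% and 57.8%, and that of 435_4 was 19.2%, 20.6% and 18.3%, in the range of their CTL libraries. Against CTL, overexpression changed 6793_1 by 0.02 ± 0.06 (edgeR adjusted p = 0.968) and 435_4 by -0.04 ± 0.08 (edgeR adjusted p = 0.949).

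Other events stood apart between overexpression and knockdown. Event 1738_1 (chr2:190931637-190964087, plus) had 4.98%, 6.17% and 6.15% in GFP_TRA, against 10.4%, 10.1% and 11.0% in siTRA, a change of -0.94 ± 0.14 (SE, edgeR adjusted p = 0.00339), and CTL lay between them at 9.54%, 8.30% and 7.40%. Neither group passed against CTL in this event, at -0.58 ± 0.14 in GFP_TRA vs CTL (edgeR adjusted p = 0.0544) and 0.36 ± 0.13 in siTRA vs CTL (edgeR adjusted p = 0.182). Single bins did pass in the authors' deposited bin tests, 2 of 3 outer bins for CTL vs GFP_TRA and 1 of 3 for CTL vs siTRA. Of its 9 inner bins 0 passed in either. Event 1706_1 (chr2:173217250-173266772, plus) had 6.25%, 7.47% and 5.93% in GFP_TRA, against 4.07%, 2.80% and 4.46% in siTRA, a change of 0.83 ± 0.15 (edgeR adjusted p = 0.0139), again with CTL between. Event 9058_4 (chr14:103692425-103700655, plus), in a group of overlapping genes and chosen after its values were seen, had 16.4%, 18.2% and 19.1% in GFP_TRA, against 11.1%, 11.1% and 12.3% in siTRA, a change of 0.73 ± 0.08 (edgeR adjusted p = 0.00069). On the minus strand event 3458_2 had 86.7%, 89.9% and 86.9% in GFP_TRA, against the siTRA shares given before, a change of 1.22 ± 0.25 (edgeR adjusted p = 0.0239). Event 5464_1 had 79.0%, 83.5% and 77.0% in GFP_TRA, against 69.6%, 67.8% and 60.6% in siTRA, a change of 1.04 ± 0.21 (edgeR adjusted p = 0.0225).

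A set of 6 events was called in CGG, in GFP_TRA and in siTRA vs CTL, in the same direction each time. They are 11100_2, 1471_1, 3160_1, 8055_1, 7672_8 and 11234_2, and they were chosen for this after their values were seen. The 3 comparisons share the CTL libraries, so this repetition is not independent. How many tested events of other types were called in all 3 was not counted, so the set cannot be read as particular to last exon events. In GFP_TRA vs CTL the calls of 3160_1 and 7672_8 were each lost under 10 of 16 alternative settings. The call of 3160_1 was also lost under 7 in CGG vs CTL and 6 in siTRA vs CTL, and that of 8055_1 under 6 in CGG vs CTL. Event 11100_2 reversed in all 3 comparisons under the split by strand. In event 7672_8 (chr11:62536567-62546791, minus) the outer share was 91.1%, 93.7% and 92.7% in GFP_TRA, 93.1%, 94.3% and 93.0% in siTRA and 92.8%, 94.0% and 95.2% in CGG, against 88.5%, 86.0% and 87.8% in CTL. In event 11234_2 (chr17:75181188-75182935, minus), in a group of overlapping genes, it was 97.2%, 97.5% and 97.3% in GFP_TRA, 97.1%, 98.0% and 97.5% in siTRA and 97.1%, 97.4% and 96.9% in CGG, against 98.7%, 98.8% and 98.8% in CTL. The CTL libraries lay outside the range of all other groups, CGG_siTRA included, in each of the 6. An effect of transfection common to the other groups cannot be told apart from effects of the repeat and of TRA2A here. Event 5464_1 was unlike these, since its GFP_TRA libraries lay near CTL while CGG and siTRA lay lower. Its CGG_siTRA libraries, at 74.2%, 74.3% and 78.4%, lay above all CGG and siTRA libraries but partly below the CTL range. In the authors' deposited bin tests for CGG_siTRA vs CTL its inner bin had an adjusted p of 0.0255.

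**Figure D5:**
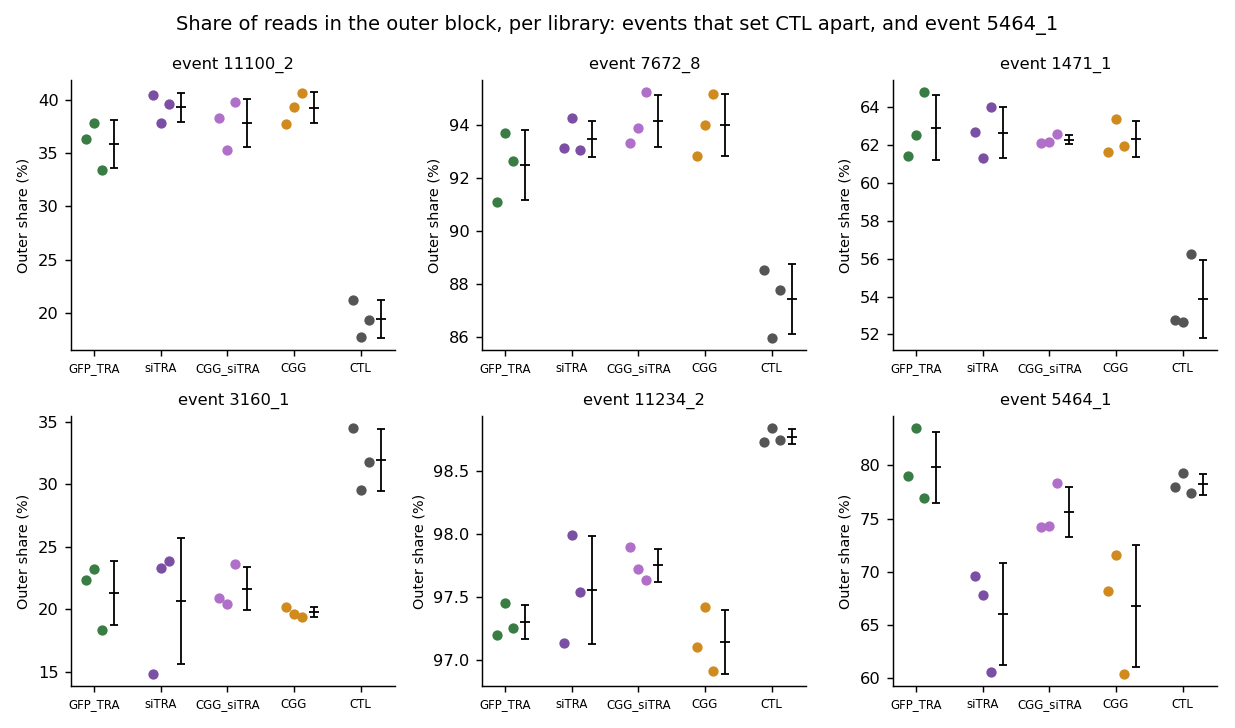
Outer share in percent (vertical axis, which does not start at 0) of 5 events whose CTL libraries lie outside all other groups and of event 5464_1, in each of 3 libraries of GFP_TRA, siTRA, CGG_siTRA, CGG and CTL (points), with mean and SD beside them. CTL is low in 11100_2, 1471_1 and 7672_8 and high in 3160_1 and 11234_2, whereas in 5464_1 the siTRA and CGG points are low.

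The authors' deposited event tables give 1 change in percent spliced in (Delta PSI, as a fraction) and 1 p-value per event and no value per library. They are also the only source for CGG_TRA cells. Neither which of the alternative exons the fraction refers to nor the order of subtraction is stated, so the deposited sign is given as it stands. The authors' deposited table for CGG vs CTL has 8 of 800 events with p under 0.001 (1.0%, 5 positive and 3 negative), beside 1.54% of all 6311 events. For GFP_TRA vs CTL the authors' deposited table has 8 (1.0%, 4 and 4), beside 1.38%. In the authors' deposited table for CGG_TRA vs CGG there are 7 (0.875%, 5 and 2), beside 0.856%, and for CGG_TRA vs CGG_siTRA 8 (1.0%, 5 and 3), beside 1.11%. The authors' deposited table for CGG_siTRA vs siTRA has 5 (0.625%, 1 and 4), beside 0.523%. Of the 253 plus-strand events, which are mostly last exons by the gene models, the authors' deposited tables call 4 in CGG vs CTL (1.58%), 3 in GFP_TRA vs CTL (1.19%), 2 in CGG_TRA vs CGG (0.791%), 4 in CGG_TRA vs CGG_siTRA (1.58%) and 1 in CGG_siTRA vs siTRA (0.395%). Of the 536 minus-strand events the authors' deposited tables call 4 (0.746%), 5 (0.933%), 5 (0.933%), 4 (0.746%) and 4 (0.746%) in the same order. Their median absolute Delta PSI in the authors' deposited tables lay between 0.0107 and 0.0128, beside 0.00856 to 0.00957 over all events, and 33 or 87 events, depending on the table, stood at exactly 0.

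In CGG vs CTL event 5134_2, which rose in the outer-to-inner ratio, had a Delta PSI of -0.129 in the authors' deposited table (p = 3.58e-09). The authors' deposited table gives event 9008_1 (chr14:75988977-76083740, plus, in a group of overlapping genes) 0.115 in CGG vs CTL (p = 3.84e-05) and -0.107 in CGG_TRA vs CGG (p = 0.000409). These share the CGG libraries. Its outer share, which pools the bins of each side, did not differ detectably in the counts, with 16.9 ± 0.24% in CGG and 17.1 ± 0.75% in CTL (SD, n = 3 each). Single bins did differ: in the authors' deposited bin tests for CGG vs CTL, 5 of its 10 tested inner bins and 1 of its 3 outer bins had an adjusted p under 0.05. In GFP_TRA vs CTL the authors' deposited table has its extremes past p under 0.001 in event 4487_1 (chr6:127280340-127286616, plus), with -0.208 (p = 4.12e-07), and in event 7019_1 (chr10:87814612-87818222, minus), with 0.201 (p = 1.02e-05). By counts, 4487_1 had 61.8 ± 6.26% in GFP_TRA and 50.2 ± 2.32% in CTL and 7019_1 had 17.7 ± 1.39% in GFP_TRA and 23.1 ± 1.49% in CTL (SD, n = 3 each), and neither passed the test (edgeR adjusted p = 0.0806 and 0.212). In both the deposited sign is opposite to that of the outer share. Other events matched in sign and passed by counts. Event 2180_2 (chr2:177234271-177264683, minus, in a group of overlapping genes) had 0.0939 in the authors' deposited table for GFP_TRA vs CTL (p = 3.55e-07). By counts it rose by 0.66 ± 0.15 (edgeR adjusted p = 0.0451). For CGG vs CTL the authors' deposited table gives event 11234_2 -0.0128 (p = 2.25e-06), with -1.26 ± 0.12 by counts (edgeR adjusted p = 0.000167).

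For repeat-carrying cells with overexpression against those with knockdown, the authors' deposited table gives event 1706_1 a Delta PSI of 0.0812 (p = 4.59e-09), the lowest p of any of the 800 events in that table. The counts showed the same event higher in GFP_TRA than in siTRA, as given above, in libraries that this deposited comparison does not use. Event 9058_4 had -0.0636 in the authors' deposited table for CGG_TRA vs CGG_siTRA (p = 0.000355), the other way round from its outer share in GFP_TRA vs siTRA. The largest size in that deposited table among the events past the authors' p under 0.001 was -0.203, in event 877_2 (chr1:35178036-35187001, minus, p = 0.000299). In the authors' deposited table for CGG_TRA vs CGG, event 5464_1 had 0.0951 (p = 0.000243) and event 5941_3 (chr8:98045399-98276280, minus) had -0.194 (p = 0.000148). By counts 5941_3 was not tested, since its outer block held too few reads. That block ends at 98046469, far short of the event's high coordinate. For CGG_siTRA vs siTRA the authors' deposited table gives its largest size past the authors' p under 0.001 in event 11175_1 (chr17:58512941-58517875, minus), -0.162 (p = 0.000653).

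Signs were set side by side for events called by counts that had a Delta PSI other than 0. In GFP_TRA vs CTL the authors' deposited sign matched that of the outer-to-inner ratio in 8 of 8 minus-strand and 4 of 5 plus-strand events. In CGG vs CTL it matched in 5 of 6 minus-strand and 2 of 7 plus-strand events. The match thus varied with strand and comparison, and no direction of exon choice was drawn from Delta PSI.

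The authors also tested each exon bin. In the authors' deposited table for CGG vs CTL, 5.19% of the bins inside the events, both strands pooled, had an adjusted p under 0.05, beside 2.0% of all bins. The corresponding shares in the authors' deposited tables were 4.09% beside 1.32% for CTL vs GFP_TRA, 4.17% beside 1.83% for CTL vs siTRA, 7.04% beside 3.34% for CGG_siTRA vs CGG, 7.71% beside 3.87% for CGG_siTRA vs CTL and 1.9% beside 0.595% for GFP_TRA vs siTRA. Bins of these events were called more often in every deposited table. The part of read depth in this was not tested. Of the outer bins alone, the share called ran from 1.35% for GFP_TRA vs siTRA, beside 0.595% of all bins, to 9.55% for CGG_siTRA vs CTL, beside 3.87%. An outer bin was called in between 19 of 696 events, for GFP_TRA vs siTRA, and 108 of 696, for CGG_siTRA vs CTL. Events of other types were not counted in this way, and an event with several outer bins has several chances of a call.

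The genes that hold the events were called for total expression in larger shares than all genes, a difference that was not tested. Of 694 such genes tested, 227 (32.7%) passed in CGG vs CTL, 110 higher and 117 lower in CGG, beside 24.1% of all 14977 genes (edgeR quasi-likelihood test, adjusted p under 0.05 over all genes). In GFP_TRA vs CTL 267 passed (38.5%), 160 higher and 107 lower, beside 28.5%. In siTRA vs CTL 349 passed (50.3%), 177 higher and 172 lower, beside 37.9%. The knockdown with the repeat, CGG_siTRA vs CGG, gave 106 (15.3%), 40 higher and 66 lower, beside 10.1%, and GFP_TRA vs siTRA gave 274 (39.5%), 170 higher and 104 lower, beside 31.5%. In CGG_siTRA vs siTRA 0 of 694 passed, beside 0.0134% of all genes. The median size of a change was smaller in these genes than in all genes in each comparison, for example 0.19 against 0.25 on the log2 scale in siTRA vs CTL, so their calls were more frequent while their changes were smaller.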

How the data were processed

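Per the submitters' processing notes, the steps used cutadapt 1.14, STAR 2.5.2 and the build GRCh38.p10, which is human although the cells are from monkey, and DESeq2 is listed without a role. Per the labels' protocols, libraries were made from total RNA after removal of ribosomal RNA. The authors deposited raw counts per exon bin for pairs of groups and a table of normalised signal per bin for all 15 libraries, whose values were whole reads times a library factor. The authors' deposited bin tables also hold p-values and log2 fold changes. The authors' deposited event tables list for every event Delta PSI, a p-value and a z score (the last not used).

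Bins were placed by position in 431444 located bins, and 1623 count cells were filled from the normalised table, where all values came out whole within 0.1 reads. Outer and inner reads were summed per event and library. The ratio was tested with edgeR 4.0.16 (R 4.3.3) in quasi-likelihood fits with library, side and side-by-group terms over all 15 libraries, scaled by TMM, for 4258 events with at least 10 normalised reads in at least 3 libraries on each side, adjusted by Benjamini-Hochberg over all of them. limma 3.58.1, DESeq2 1.42.0 and edgeR's diffSpliceDGE were alternatives. Gene counts were the sums of bins, tested with edgeR.

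The members and lists were chosen with earlier results of these data known. Both the split into sides and the test differ from those first written down. The split was changed when the event types were seen to ignore strand, and the test after diffSpliceDGE had been run and had called few events. Events were named by rule: for counts the 5 highest rises and 5 lowest falls per comparison (3 for the difference of knockdown effects) with adjusted p under 0.05, a mean of 50 normalised reads on both sides, no overlap of groups and a single gene, and for Delta PSI the 5 at each extreme with p under 0.001. Events named outside the rule are said to be so. Intervals of shares are 95% exact binomial, at most 10.7 points either way for named events. Libraries of a group differed by 11.1 to 183 chi-square per degree of freedom over genes, so none was taken as a repeat. A list of cleavage and polyadenylation factors and the cell type markers matched 0 identifiers and were not tested.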

Additional observations from a re-analysis of the deposited data

Results flagged for a closer look

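The change of the outer-to-inner ratio from CGG to CGG_siTRA differed from that from CTL to siTRA in 8 events, by a test of the difference itself in edgeR. Of these, 4 were named for this difference by the rule. The difference takes in CTL, so an effect of transfection cannot be told apart from a dependence of the knockdown effect on the repeat. In event 11100_2 the CTL libraries lay apart from those of all other groups, as given above. The same holds for events 11234_2 and 1471_1, which also passed but fall outside the naming rule here. Their differences were 1.40 (edgeR adjusted p = 0.0024) and -0.52 (edgeR adjusted p = 0.0324) on the log2 scale. The difference, on the log2 scale and as the effect with the repeat minus the effect without, was 1.54 in event 5464_1, -1.54 in event 11100_2, -0.88 in event 10587_3 and -0.76 in event 6001_5. In 5464_1 the knockdown effect was 0.66 in CGG_siTRA vs CGG (edgeR adjusted p = 0.15) and -0.88 in siTRA vs CTL (edgeR adjusted p = 0.0312). In 11100_2 it was -0.10 in CGG_siTRA vs CGG (edgeR adjusted p = 0.79) and 1.44 in siTRA vs CTL (edgeR adjusted p = 2.19e-05), and in 6001_5 it was -0.13 in CGG_siTRA vs CGG (edgeR adjusted p = 0.536) and 0.63 in siTRA vs CTL (edgeR adjusted p = 0.00107). The planned diffSpliceDGE test called the difference in 0 events. Under the 22 alternative settings the call was lost in 11 for 5464_1, in 6 for 10587_3, with values down to -0.36, and in 2 for 6001_5. For 11100_2 it was lost in 2 and the value turned to 0.75 under the split by strand.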

How the results depend on the processing

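The counts depended on the test, on the libraries fitted together and on single libraries. The test first planned, edgeR's diffSpliceDGE, called 1 event in CGG vs CTL, 0 in GFP_TRA vs CTL, 2 in siTRA vs CTL, 1 in CGG_siTRA vs CGG, 3 in GFP_TRA vs siTRA and 0 for the difference of knockdown effects, against 14, 15, 31, 11, 29 and 8 in the fit reported. It kept 6 of 63 named pairs of event and comparison: 11100_2 in CGG vs CTL and siTRA vs CTL, 435_4 in both knockdown comparisons, and 1706_1 and 1738_1 in GFP_TRA vs siTRA. With the compared groups' libraries alone the counts were 47, 25, 13, 6 and 6 for CGG vs CTL, GFP_TRA vs CTL, siTRA vs CTL, CGG_siTRA vs CGG and GFP_TRA vs siTRA. limma with a pseudocount of 0.5 gave 7 in CGG_siTRA vs CGG, and the highest inner bin alone gave 4 for the difference of effects. Leaving out 1 library gave 4 to 8 in CGG vs CTL, 7 to 14 in GFP_TRA vs CTL (9 without CTL library b), 19 to 35 in siTRA vs CTL, 1 to 10 in CGG_siTRA vs CGG, 0 to 10 in CGG_siTRA vs siTRA, 8 to 33 in GFP_TRA vs siTRA and 3 to 11 for the difference of effects. The cause was not tested. Across 1026 values of the 63 pairs, 718 kept their call, 300 lost it and 8 turned round. In GFP_TRA vs siTRA 3968_3 lost its call under 9 of 15 settings, and in GFP_TRA vs CTL 7672_8 under 10 of 16. With the block at the 3′ end by strand, which reads minus-strand events from the other end, 11100_2 was -0.61 in CGG vs CTL, -0.79 in GFP_TRA vs CTL, -0.65 in siTRA vs CTL and 0.75 for the difference of effects, 10936_2 was -0.30 in CGG_siTRA vs CGG, 2999_1 was -0.50 in GFP_TRA vs CTL and 7612_1 was -0.12 in GFP_TRA vs siTRA. With the highest inner bin alone 6872_1 was 0.026 in CGG vs CTL. For the authors' Delta PSI, p under 0.05 gave 53 events in CGG vs CTL, 59 in GFP_TRA vs CTL, 72 in CGG_TRA vs CGG, 65 in CGG_TRA vs CGG_siTRA and 57 in CGG_siTRA vs siTRA. Benjamini-Hochberg adjusted p under 0.05 gave 3 in CGG_TRA vs CGG, 5 in CGG_TRA vs CGG_siTRA and 0 in CGG_siTRA vs siTRA. A size of at least 0.1 beside p under 0.001 left 4 in CGG vs CTL, 3 in CGG_TRA vs CGG, 4 in CGG_TRA vs CGG_siTRA and 1 in CGG_siTRA vs siTRA. No paired analysis was possible because the count columns carry no replicate numbers. The gene list tests were not run, since no identifier could be paired with a name.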
